A study of Mus musculus with 9 samples.

Results

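Growth arrest and immediate early genes are 10 genes that cells use to answer a stimulus quickly or to stop dividing: Fos, Jun, Egr1, Ier2, Myc, Btg2, Cdkn1a, Ccng1, Gadd45a and Gadd45b. They were taken by name, from probe sets annotated to 1 of these symbols alone, and each gene is represented by its probe set with the highest mean signal over the 9 arrays. All 10 had such a probe set, out of 18193 genes with one. The mice were females of the Crlj:CD1(ICR) strain, an outbred stock. They were bought at 9 weeks of age, quarantined for 1 week and fed the diets for 2 weeks before the liver was taken. The control diet held 0 ppm of either chemical, and the other diets held 5000 ppm of permethrin, a pyrethroid insecticide, or 5000 ppm of clofibrate, a fibrate drug that activates the nuclear receptor PPAR alpha. Each group had 3 mice with 1 array per mouse, and no group was sampled at an earlier time or a lower dose. The treated samples are called rat in 1 label field and mouse in the others, and were taken as mouse.

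Immediate early genes are switched on within minutes of a stimulus without new protein synthesis, and their transcripts decay fast. Fos and Jun proteins pair to form the transcription factor AP-1, Egr1 is a zinc finger transcription factor, and Myc pairs with Max to drive genes of growth. In liver these genes are known for a brief rise after partial hepatectomy, injury or handling. Cdkn1a encodes p21, an inhibitor of cyclin-dependent kinases, and with Btg2, Ccng1 and Gadd45a it is a known target of p53. Gadd45 proteins bind cell cycle and stress kinase partners, and Gadd45b is known to be induced in liver by fibrates and by ligands of the receptor CAR.

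The signal is the linear MAS5 value of a probe set, in arbitrary units, with no detection call beside it. Each probe set has its own efficiency, so a brighter signal does not mean a more abundant transcript. Brightness was used to choose a gene's probe set and to set spread against that of probe sets of like signal. The number of arrays, 3 per group, limits the precision. Fold changes are on the scale of log2(signal + 3.35), which understates changes of dim probe sets. Unless stated otherwise, ± is the SD after a signal and the standard error after a log2 change, with n = 3 arrays per group. Both comparisons with control use the same 3 control arrays. In bulk liver, fewer cells of a type and less RNA per cell cannot be told apart.

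Some measures of the arrays differed between the groups. One of the array's 18S ribosomal RNA probe sets read 122 to 194 on control arrays, 33.4 to 95.1 on permethrin arrays and 47.1 to 68.6 on clofibrate arrays. Gapdh signal at the 3' end over that at the 5' end was 0.912 to 1.04, 0.835 to 0.904 and 0.856 to 0.894 in the same order. Spiked hybridization controls had a mean log2 signal of 9.94 to 10.26, 9.79 to 10.15 and 9.68 to 9.92. Hepatocyte markers, all 9 of 9 with a probe set being well measured, summed to signals of 79631 to 86802 on control arrays, 67694 to 71618 on permethrin arrays and 54165 to 67073.5 on clofibrate arrays. With clofibrate, 6 of the 9 were lower (limma adjusted p under 0.05, Alb and Cps1 among them) and with permethrin 0 were, though 5 had an unadjusted p under 0.05. Of 10 markers of Kupffer cells and macrophages and 9 of stellate cells, 0 passed in either comparison with control. Of 9 endothelial markers 1 fell, Fcgr2b with clofibrate. The unadjusted p was under 0.05 for 0, 3 and 2 of these lists' genes with permethrin and for 0, 4 and 4 with clofibrate. Each of these genes was lower. Among all tested genes, 15.8% had such a p with permethrin and 21.0% with clofibrate. An adjusted p under 0.05 was found for 2.13% and 7.03% of them. Of the markers with a probe set, 3 of 4 of B cells, 4 of 5 of neutrophils and 3 of 4 of bile ducts were bright enough to be tested. The B cell marker Cd79a, the neutrophil marker Camp and the bile duct marker Krt7 stayed at or below the filter on every array.

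With permethrin, 1 of the 10 genes, Ier2, passed the threshold of an adjusted p under 0.05, and it fell. Among all 12466 tested genes 2.13% passed, and 0.850% passed in the lower direction. With clofibrate 0 of the 10 passed, beside 7.03% of all genes, and between the 2 treated groups 0 of the 10 passed, beside 0.738% of all genes. All 10 genes had passed the filter on dim probe sets, which asks for a signal above 15.6 in at least 3 arrays. The median log2 change of the 10 genes was 0.39 with permethrin and 0.26 with clofibrate, where the median over all tested genes was -0.04 in both. With permethrin 6 of the 10 had a change above 0, and with clofibrate 7 of the 10.

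**Figure D1:**
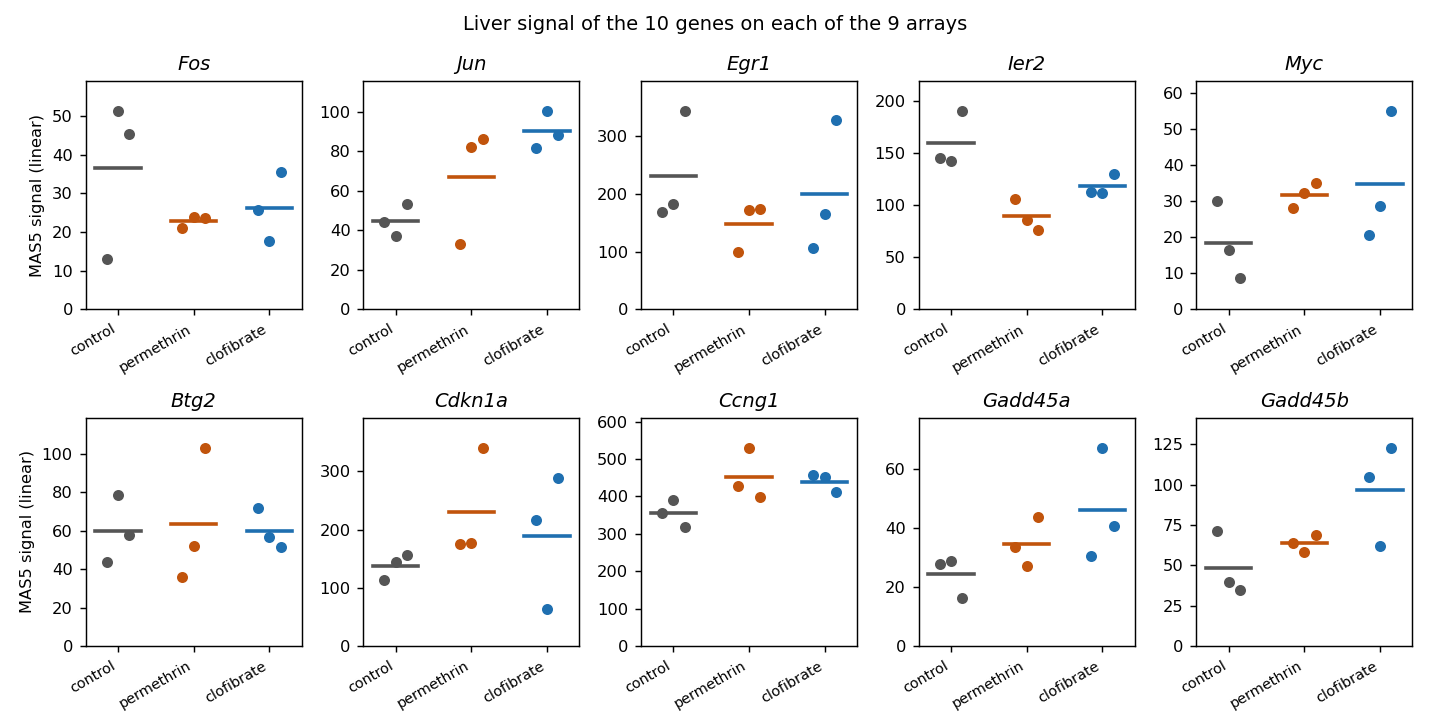
Linear MAS5 signal of each of the 10 genes on the 9 arrays; each point is 1 mouse, the horizontal line is the mean of the group, and each panel has its own axis from 0. For Ier2 the 3 groups lie apart, with control arrays at 143 to 191, clofibrate arrays at 111 to 130.3 and permethrin arrays at 76.0 to 106.

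Ier2 encodes a nuclear protein of the immediate early response. Its probe set, 1416442_at, had signals of 146, 143 and 191 in the control mice. The permethrin mice had 106, 86.0 and 76.0, and the clofibrate mice 113, 111 and 130.3. All 3 permethrin signals lay below all clofibrate signals, which in turn lay below all control signals. Control mice averaged 159.6 ± 26.8, permethrin mice 89.5 ± 15.5 and clofibrate mice 118 ± 10.5. Against control the log2 change with permethrin was -0.81 ± 0.17 (95% interval -1.18 to -0.44, limma adjusted p = 0.0379), which is 1.76-fold lower.

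The call on Ier2 lay near the threshold, as the plot of Ier2 by alternative shows. Its direction was the same in each of 21 alternative settings, with a log2 change of -0.94 to -0.67, but the adjusted p ranged from 0.0287 to 0.230 and the call ended in 14 of them. Leaving out 1 array ended it for control replicate 1, 2 or 3, permethrin replicate 2 or 3, or clofibrate replicate 3, with adjusted p from 0.0562 to 0.151 in limma. With the replicate number as a block the adjusted p was 0.0745. The summed hepatocyte markers, the 18S probe set and the 3' to 5' ratio given above are lower on permethrin arrays too, and their part in the result was not tested. Scaled to the hybridization controls, the log2 change of Ier2 was -0.67, or -0.76 relative to the median gene, with an adjusted p of 0.230.

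**Figure D2:**
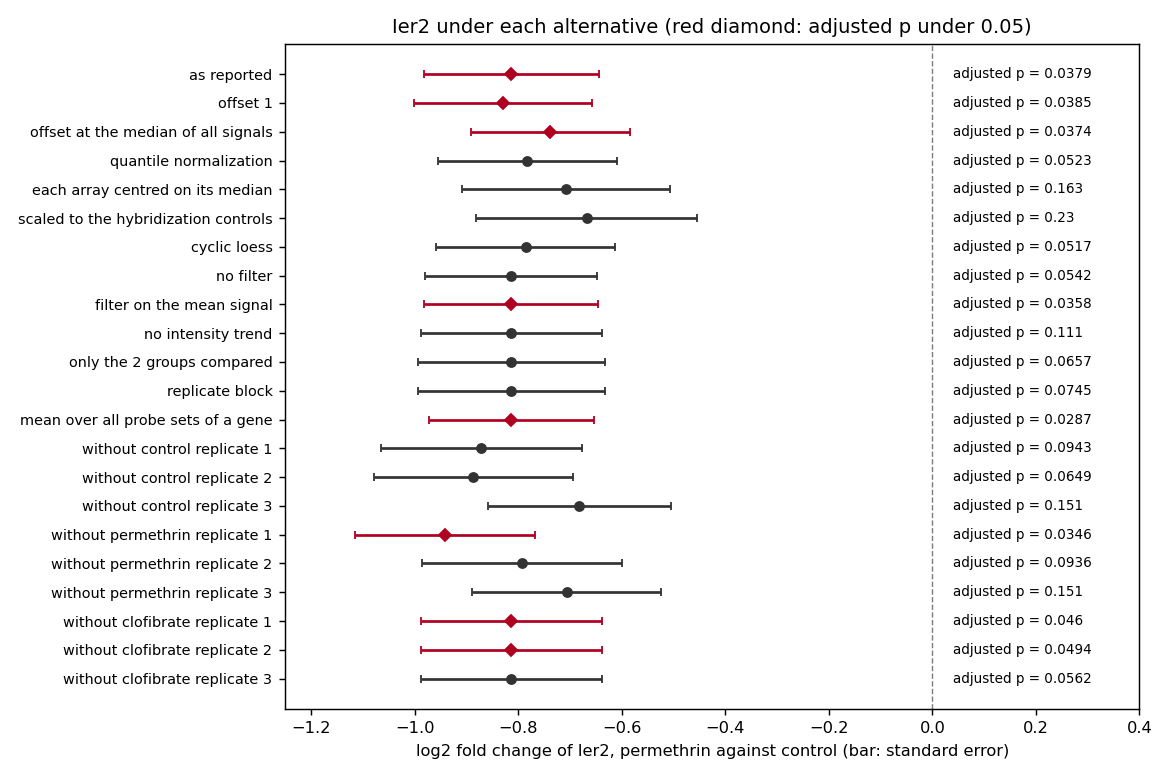
Log2 fold change of Ier2 with permethrin against control under the reported setting and 21 alternatives; bars are standard errors, and red diamonds mark an adjusted p under 0.05. Every estimate is below 0, from -0.94 to -0.67, and 7 of the 21 alternatives keep the adjusted p under the threshold.

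With clofibrate the log2 change of Ier2 against control was -0.41 ± 0.17 (95% interval -0.78 to -0.04, limma adjusted p = 0.204). Between permethrin and clofibrate it was -0.40 ± 0.17 (95% interval -0.77 to -0.03, adjusted p = 0.376), so a difference between the treated groups was not established. By brightest probe sets, Ier2 was the 1 member whose permethrin and clofibrate arrays did not overlap, beside 18.1% of all genes. Of the members' other probe sets, Ccng1 1450017_at and Gadd45b 1450971_at also had all permethrin arrays below all clofibrate arrays. Ier2 was also the 1 member with an unadjusted p under 0.05 in that comparison, beside 13.0% of all genes. The genes whose log2 signals followed Ier2 most closely over the 9 arrays were Rictor, a subunit of the kinase complex mTORC2, with a Pearson correlation of 0.97, and Pla2g12b, a secreted phospholipase family member needed for lipoprotein secretion, with 0.97. These are the highest values among all tested genes, given as a description. Neither gene passed the threshold in either comparison with control, with log2 changes of -0.49 and -0.28 with permethrin.

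Fos was dim, and its signals did not separate the groups. The control mice had 13.1, 51.4 and 45.5, the permethrin mice 21.2, 23.8 and 23.7, and the clofibrate mice 25.8, 17.7 and 35.6. The control group held both the lowest and the highest signal of all 9 arrays, and its lowest lay below the filter. The log2 change was -0.43 ± 0.41 with permethrin (95% interval -1.33 to 0.47, limma adjusted p = 0.704) and -0.29 ± 0.41 with clofibrate (-1.20 to 0.61, adjusted p = 0.766). A decrease of more than 2-fold lies within both intervals.

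Egr1 varied by mouse in a similar way. Its signals were 168, 182 and 343 in controls, 99.2, 172 and 173 with permethrin, and 107, 164 and 327 with clofibrate. In both the control and the clofibrate group 1 mouse stood at about the same high level, replicate 3 in each, and no permethrin mouse reached it. The groups overlapped in every comparison. Egr1 had a log2 change of -0.60 ± 0.39 with permethrin (95% interval -1.44 to 0.25, limma adjusted p = 0.547) and -0.29 ± 0.39 with clofibrate (-1.13 to 0.56, adjusted p = 0.756).

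Jun had higher signals on all clofibrate arrays than on any control array. Its signals were 44.3, 37.0 and 53.2 in controls, 32.9, 82.3 and 86.2 with permethrin, and 81.7, 101 and 88.4 with clofibrate. By this brightest probe set, 1417409_at, 2 permethrin mice lay at the clofibrate level and replicate 1 lay below all controls. The log2 change with clofibrate was 0.97 ± 0.30 (95% interval 0.30 to 1.63, limma adjusted p = 0.0971), which misses the threshold. A further Jun probe set, 1448694_at, gave 50.01, 24.6 and 53.2 in controls and 92.9, 63.5 and 90.0 with clofibrate, again without overlap, and a log2 change of 0.94 ± 0.30 (adjusted p = 0.108). With permethrin the log2 change of Jun was 0.45 ± 0.30 (95% interval -0.21 to 1.12, adjusted p = 0.563). The clofibrate change passed in 3 alternatives, with an adjusted p of 0.00969 without permethrin replicate 1, 0.0165 in a fit of the clofibrate and control arrays alone, and 0.0100 when scaled to the hybridization controls.

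Myc was dim in all groups. Its signals were 30.1, 16.4 and 8.84 in controls, 28.1, 32.4 and 35.1 with permethrin, and 20.7, 28.9 and 55.2 with clofibrate. The signals of the treated groups overlapped those of the controls through control replicate 1. Myc had a log2 change of 0.81 ± 0.39 with permethrin (95% interval -0.05 to 1.66, limma adjusted p = 0.397) and 0.83 ± 0.39 with clofibrate (-0.03 to 1.69, adjusted p = 0.279).

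Rapid induction is tied to short elements just before a gene's start, of the kind bound by CREB, ATF and AP-1 factors. Such stretches of Fos, Jun, Gadd45b and Btg2 are shown because they hold matches to the patterns named below. They are from RefSeq (GRCm38.p6), whose promoter table held 7 of the 10 genes, and run 5′ to 3′ on the strand of the gene. Ier2, Myc and Egr1 are named only. Capitals mark matches, on either strand, to TGACNTCA, to TGACG, which can lie inside the first, and to TATAAA.
Fos, chr12:85473790-85473889, plus strand: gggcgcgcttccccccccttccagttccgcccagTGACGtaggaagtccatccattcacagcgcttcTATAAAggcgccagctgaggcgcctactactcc
Jun, chr4:95052223-95052322, minus strand: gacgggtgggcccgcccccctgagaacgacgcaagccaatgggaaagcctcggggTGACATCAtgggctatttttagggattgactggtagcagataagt
Gadd45b, chr10:80929991-80930090, plus strand: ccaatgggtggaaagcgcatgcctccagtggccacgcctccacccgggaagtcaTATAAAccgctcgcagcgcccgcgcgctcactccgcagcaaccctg
Btg2, chr1:134079256-134079355, minus strand: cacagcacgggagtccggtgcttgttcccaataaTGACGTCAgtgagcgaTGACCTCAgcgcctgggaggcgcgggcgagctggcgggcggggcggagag

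The first 3 stretches end at position -1, counted back from the gene's start, and that of Btg2 runs from -200 to -101, where its matches lie. In the full window of 250 bases before to 50 after the start, TGACNTCA was found in 2 of the 7 genes, Jun at -45 and Btg2 at -166 and -150, and in 8.83% of 32851 promoters. TGACG was found in Fos at -129 and -66 and in Btg2, against 20.8% of promoters, and TATAAA in Fos at -33 and Gadd45b at -46, against 13.6%. Cdkn1a, Ccng1 and Gadd45a, the rest of the 7 genes, had no match to any of these patterns in that window. A match is a description of the letters and not evidence of binding. The genes shown had different patterns of signal. Jun was higher on every clofibrate array than on any control array. Gadd45b was too by probe sets 1450971_at and 1420197_at, but overlapped by its brightest, 1449773_s_at. Fos and Btg2 overlapped in every comparison, and no change of these 4 genes passed the threshold.

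Btg2, which restrains cell division and speeds removal of mRNA tails, had, by its brightest probe set, 1448272_at, the smallest changes of the 10 genes in both comparisons with control. Its signals were 43.6, 78.5 and 57.8 in controls, 35.8, 51.9 and 103 with permethrin, and 71.8, 56.6 and 51.5 with clofibrate. The highest and the lowest of all 9 signals were both in the permethrin group. The log2 change was -0.01 ± 0.33 with permethrin (95% interval -0.73 to 0.71, limma adjusted p = 0.994) and 0.02 ± 0.33 with clofibrate (-0.70 to 0.75, adjusted p = 0.979). The sign of both changed between settings. A further probe set, 1416250_at, had changes of 0.00 and 0.47, neither past the threshold.

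Cdkn1a varied most between mice of a group. Its probe set 1424638_at gave 113, 144 and 156 in controls, 175, 177 and 341 with permethrin, and 216, 63.3 and 288 with clofibrate. All permethrin arrays lay above all control arrays, while the clofibrate arrays lay on both sides of them. For this probe set the log2 change was 0.67 ± 0.45 with permethrin (95% interval -0.32 to 1.67, limma adjusted p = 0.565) and 0.21 ± 0.45 with clofibrate (-0.78 to 1.21, adjusted p = 0.856). The dimmer probe set 1421679_a_at, with controls at 24.7, 41.2 and 48.3 and permethrin mice at 44.3, 27.9 and 64.8, overlapped, and its log2 change with clofibrate was -0.38 ± 0.40, of the opposite sign. Both probe sets had their lowest of all 9 signals in clofibrate replicate 2, and without that array the log2 change of 1424638_at with clofibrate was 0.85.

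Ccng1, which encodes cyclin G1, a p53 target and regulator of Mdm2, had tight groups. Its signals were 354, 391 and 319 in controls, 427, 530.5 and 397 with permethrin, and 458, 451 and 410.4 with clofibrate. Every treated array lay above every control array. The log2 change was 0.34 ± 0.14 with permethrin (95% interval 0.04 to 0.64, limma adjusted p = 0.290) and 0.31 ± 0.14 with clofibrate (0.01 to 0.61, adjusted p = 0.242). For this probe set the upper ends of the intervals were 1.56-fold with permethrin and 1.52-fold with clofibrate, and for 1450017_at the upper end with clofibrate was 1.83-fold. The other probe sets, 1450016_at and 1450017_at, had clofibrate arrays above all controls as well, with log2 changes of 0.33 and 0.50 (adjusted p = 0.346 and 0.124). With permethrin their groups overlapped, at changes of 0.17 and 0.19. Scaled to the hybridization controls, Ccng1 had a clofibrate change of 0.64 (0.37 once the median gene's shift was taken off) and passed with an adjusted p of 0.0481.

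Gadd45a, a p53-responsive growth arrest gene, was dim, with signals of 28.0, 29.0 and 16.4 in controls, 33.6, 27.1 and 43.7 with permethrin, and 30.5, 67.4 and 40.8 with clofibrate. All clofibrate arrays lay above the controls, the lowest by a small margin, and the permethrin arrays overlapped them. Gadd45a had a log2 change of 0.47 ± 0.31 with permethrin (95% interval -0.20 to 1.14, limma adjusted p = 0.549) and 0.80 ± 0.31 with clofibrate (0.13 to 1.47, adjusted p = 0.173).

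Gadd45b had 3 probe sets, and 1 of them had the highest clofibrate change of any of the 17 probe sets of the 10 genes. The brightest, 1449773_s_at, whose suffix marks probes that can also read related transcripts, had signals of 71.0, 39.6 and 34.6 in controls, 64.0, 58.1 and 68.8 with permethrin, and 105, 62.1 and 123 with clofibrate. Control replicate 1 lay above all permethrin arrays and above clofibrate replicate 2, so the groups overlapped. The log2 change was 0.43 ± 0.28 with permethrin (95% interval -0.19 to 1.06, limma adjusted p = 0.549) and 0.96 ± 0.28 with clofibrate (0.34 to 1.58, adjusted p = 0.0785).

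The other Gadd45b probe sets separated clofibrate from control. Probe set 1450971_at had 40.6, 6.92 and 34.0 in controls and 103, 62.4 and 66.1 with clofibrate, a log2 change of 1.61 ± 0.45 (limma adjusted p = 0.0639). Its lowest control signal lay below the filter. With permethrin its groups overlapped, at a change of 0.92 ± 0.45 (adjusted p = 0.403). Probe set 1420197_at had 29.3, 23.4 and 21.6 in controls and 35.6, 43.5 and 38.5 with clofibrate, a change of 0.60 ± 0.21 (adjusted p = 0.135). Its groups overlapped with permethrin, at 0.22 ± 0.21 (adjusted p = 0.704). The 3 probe sets thus had the same sign and none passed. The clofibrate change of Gadd45b passed in 5 of 21 alternatives. The adjusted p was 0.0235 when the probe sets of a gene were averaged, 0.0456 with each array centred on its median, 0.0282 when scaled to the hybridization controls, 0.0304 without control replicate 1 and 0.0288 without clofibrate replicate 2. For comparison, the log2 change between permethrin and clofibrate was -0.53 ± 0.28 (95% interval -1.15 to 0.10, adjusted p = 0.500).

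**Figure D3:**
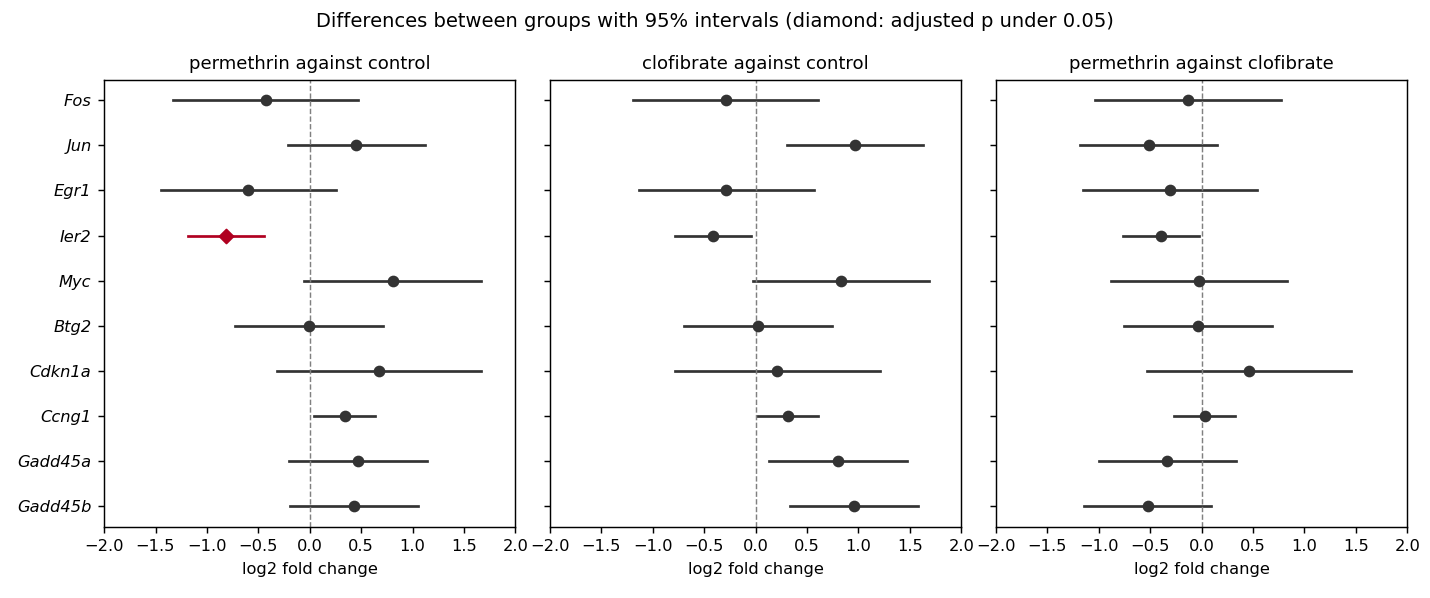
Log2 fold change (points) and 95% interval from limma (lines) of the 10 genes in the 3 comparisons; the red diamond marks the 1 change with an adjusted p under 0.05. With clofibrate the intervals of Jun, Ccng1, Gadd45a and Gadd45b lie above 0 before adjustment and that of Ier2 below 0.

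Before adjustment for the number of probe sets, 2 of the 10 genes had a p under 0.05 with permethrin, Ier2 and Ccng1, where 15.8% of all genes did. With clofibrate 5 did, Jun, Ccng1, Gadd45a and Gadd45b on the higher side and Ier2 on the lower, where 21.0% of all genes did. By the brightest probe sets, groups did not overlap for 3 members with permethrin, Ier2, Cdkn1a and Ccng1, beside 22.7% of all genes. They did not overlap for 4 with clofibrate, Jun, Ier2, Ccng1 and Gadd45a, beside 27.2%. The permethrin counts are thus near the share among all genes. To pass after adjustment, a gene needed an unadjusted p of at most 0.000804 with permethrin and 0.00279 with clofibrate, and Gadd45b, by its brightest probe set, came closest among the uncalled members at 0.00586 with clofibrate.

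Most of the 10 genes varied widely between mice of the same group. The SD of the log2 signal within groups was larger than that of over 80% of all tested genes for 8 of the 10. It was 0.74 for Cdkn1a, 0.62 for Egr1, 0.61 for Fos and 0.57 for Myc, beside a median of 0.23 over all tested genes. Ier2, at 0.20, and Ccng1, at 0.16, were the other two. Dim probe sets vary more in general, but among genes within 0.25 of its own mean log2 signal, Egr1 exceeded 98.0% and Cdkn1a 98.9%, while Ier2 exceeded 54.9%. The intervals of the 8 variable genes are correspondingly wide, and a missed threshold does not show that their groups were alike.

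**Figure D4:**
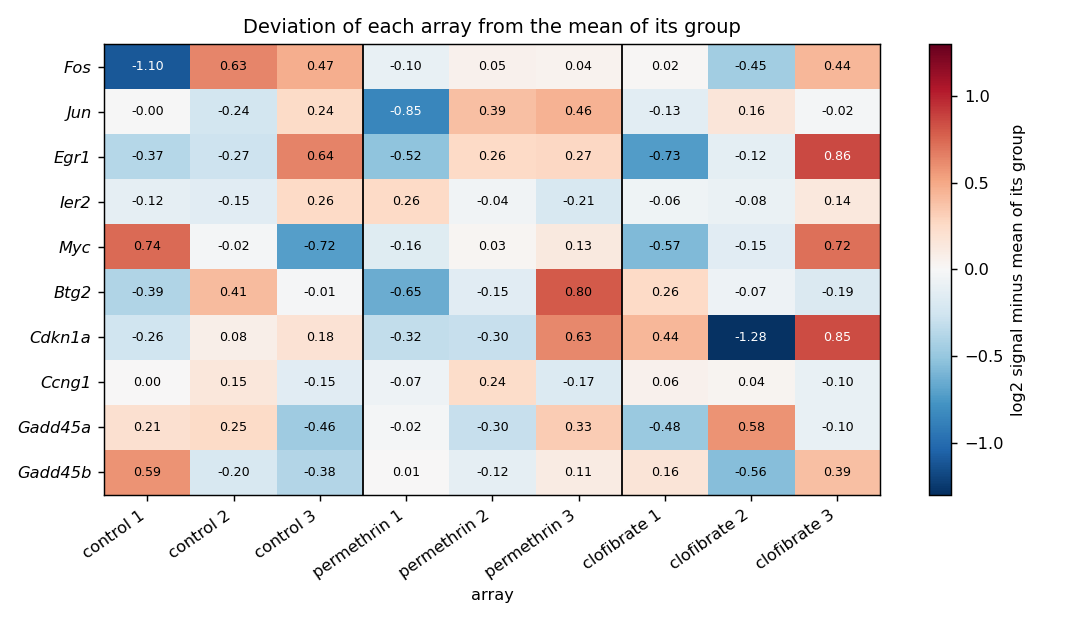
Log2 signal of each of the 10 genes on each array minus the mean of its group; red is above and blue below the group mean, and the vertical lines separate the 3 groups. Cdkn1a in clofibrate replicate 2 (-1.28) and Fos in control replicate 1 (-1.10) are the lowest cells, and the rows of Ier2 and Ccng1 stay closest to 0.

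Some mice were high in several of these genes. Permethrin replicate 3 had the highest signal of its group for 7 of the 10 genes, and clofibrate replicate 3 for 6. In the control group replicates 2 and 3 had the highest signal for 4 genes each. Such counts were not taken over all tested genes, so they describe the 10 genes only. Egr1 and Cdkn1a were highest in replicate 3 of all 3 groups. Ier2 was highest in replicate 3 of the control and clofibrate groups and lowest in permethrin replicate 3. Fos and Jun, partners in AP-1, did not have the same order in every group by their brightest probe sets. In controls the lowest Fos signal was in replicate 1 and the lowest Jun signal in replicate 2. With clofibrate Fos was lowest in replicate 2 and Jun in replicate 1, while with permethrin both were lowest in replicate 1.

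Related genes were followed through 5 lists, to be read against all tested genes: with permethrin 2.13% passed and 15.8% had an unadjusted p under 0.05, and with clofibrate 7.03% and 21.0%. Of 36 tested further immediate early genes, such as Junb, Atf3, Dusp1 and Nr4a1, 0 passed with permethrin and 0 with clofibrate in limma. At an unadjusted p under 0.05 there were 0 and 5, of which 1 was higher and 4 lower. The medians were -0.11 and 0.09. Of 19 further growth arrest genes and inhibitors of cyclin-dependent kinases, 0 passed in either comparison, with medians of -0.22 and -0.14. An unadjusted p under 0.05 was found for 5 (4 lower, 1 higher) and 2 (all lower). Of 23 Myc targets, mainly genes of ribosome production, 0 passed, with medians of 0.12 and 0.17. Such a p was found for 6 (4 higher, 2 lower) and 3 (1 higher, 2 lower). Of 17 partners of Myc and Jun proteins, 0 passed, with medians of -0.26 and -0.23. Such a p was found for 2 and 5, all lower.

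Of 28 further p53 targets 2 rose with permethrin, the same 2 rose with clofibrate, and 0 fell. At an unadjusted p under 0.05 there were 3 and 4, all higher. The count of 2 with clofibrate is near the share of calls among all genes. Those were Pltp, a phospholipid transfer protein of plasma, and Ptp4a3, a protein tyrosine phosphatase. Pltp averaged 429.9 ± 112 in controls. It rose to 3295 ± 1730 with permethrin (log2 change 2.77 ± 0.39, limma adjusted p = 0.00474) and to 4884 ± 1004 with clofibrate (3.51 ± 0.39, adjusted p = 0.000452). Pltp is also a known target of lipid-sensing nuclear receptors. Ptp4a3 rose from 57.7 ± 6.25 to 102 ± 1.34 with permethrin (0.80 ± 0.14, adjusted p = 0.0177) and 161 ± 16.5 with clofibrate (1.43 ± 0.14, adjusted p = 0.000216). With the probe sets of a gene averaged, the changes of Ptp4a3 were 0.10 and 0.73 and neither passed. Its permethrin call also ended with no intensity trend (adjusted p = 0.0525) and without control replicate 1 or 2, or permethrin replicate 1 or 3 (adjusted p from 0.0510 to 0.0851 in limma). The list's medians were 0.04 and 0.05, and Mdm2, a defining p53 target, had changes of 0.22 ± 0.21 and 0.23 ± 0.21.

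**Figure D5:**
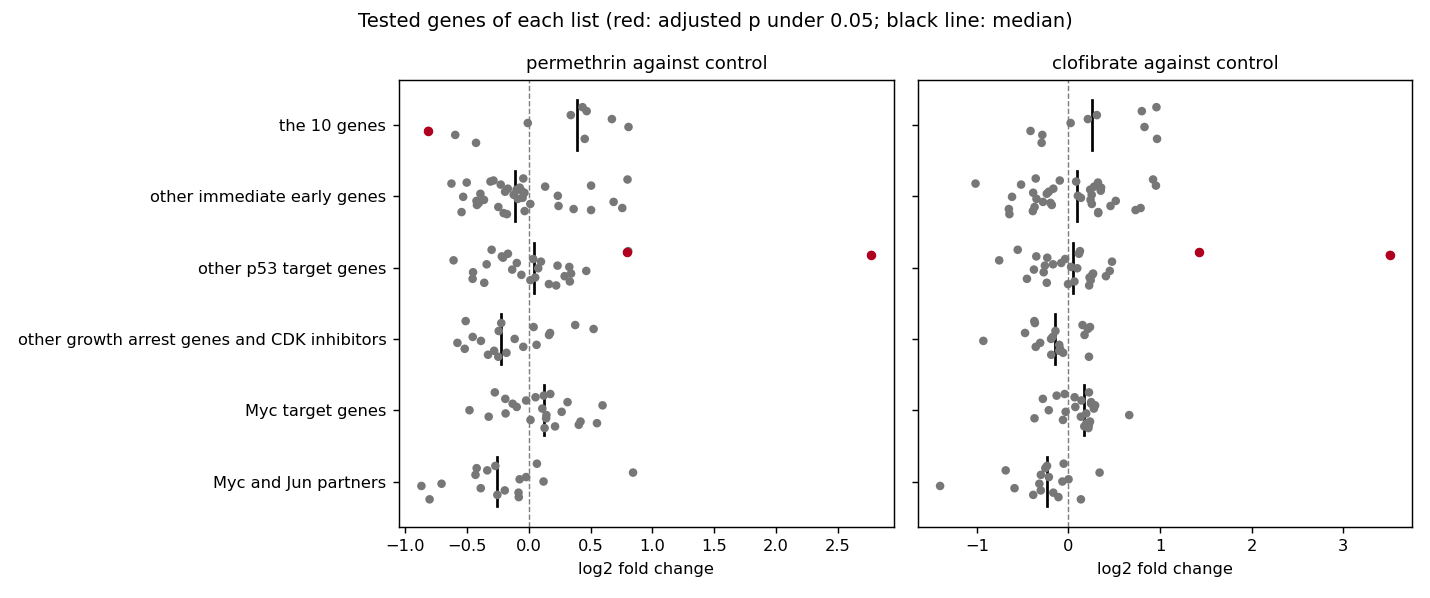
Log2 fold change of each tested gene (points) in the 10 genes and in 5 lists of related genes, for each treatment against control; black lines are medians and red points have an adjusted p under 0.05. Red points are Ier2 among the 10 genes with permethrin, and Pltp and Ptp4a3 among p53 targets with both treatments.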

How the data were processed

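Liver RNA of 9 mice was measured on Affymetrix mouse arrays. The authors used MAS5, per the submitters' processing notes, and the deposited table holds linear signal intensity per probe set. Which MAS5 version and settings is not given in the sources used here. Each array had been scaled: its mean without the lowest and highest 2% of signals was 100.001 on every array. Of 45037 probe sets outside the 64 array controls, 34945 carried 1 symbol, updated through Entrez identifiers for 34741. Before taking log2, 3.35 was added, the 20th percentile over the whole table. The filter kept 24546 probe sets that exceeded the table's median, 15.6, on 3 or more arrays. Groups were compared in limma 3.58.1 (R 4.3.3) over all 9 arrays with a mean per group and an intensity trend, two-sided, with Benjamini-Hochberg adjustment over the tested probe sets and a threshold of 0.05. The script was tested on simulated data. Alternatives changed the offset, normalization, filter, variance model, arrays, replicate block and probe set rule. Those for the lists and for Pltp and Ptp4a3 were chosen after seeing the data.

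The 10 genes and the lists were chosen with earlier results of these data known. Named beside the 10 genes are list genes past the threshold, up to 3 per list and comparison, and the 2 genes most like a called member. Other genes named were chosen after their values were seen. The labels number biological replicates but do not say that a number pairs mice. For arrays of different groups sharing a number, deviations from the group means had correlations of -0.09 to 0.10 over genes. For those not sharing a number the correlations were -0.09 to 0.13. Mice were treated as unpaired. Promoter sequences are from RefSeq.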

Additional observations from a re-analysis of the deposited data

How the results depend on the processing

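Over the 3 comparisons and 21 alternatives, the 10 genes gave 630 changes, of which 573 kept their direction and their side of the threshold, 14 lost a call (Ier2 with permethrin), 9 gained one (Jun, Ccng1 and Gadd45b with clofibrate) and 34 changed sign, the latter with sizes of at most 0.33 and adjusted p of at least 0.710; the cause was not tested. The count of members past the threshold with permethrin, 1, was 0 with quantile normalization, median centring, scaling to the hybridization controls, cyclic loess, no filter (more probe sets tested), no intensity trend, the 2 groups alone and the replicate block, and 0 to 1 with an array left out. With clofibrate, 0, it was 1 with median centring, 3 with scaling to the hybridization controls, 1 with the 2 groups alone, 1 with averaged probe sets, and 0 to 1 with an array left out. The replicate block changed no other call of the 10 genes.

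Scaling to the hybridization controls moved the median gene by 0.14 with permethrin, 0.32 with clofibrate and -0.18 between the treated groups, and median centring moved it by 0.11 with permethrin. Over all genes, the 266 calls with permethrin (160 higher, 106 lower) became 143 (117 and 26) with median centring, 166 (144 and 22) with scaling to the hybridization controls, 80 without the trend, and 108 to 323 with an array left out. The 876 with clofibrate (402 higher, 474 lower) became 487 (305 and 182) with median centring, 1103 (1015 and 88) with scaling to the hybridization controls, 397 without the trend, and 429 to 901 with an array left out. The 92 between treatments (59 higher, 33 lower) became 33 (26 and 7) with median centring, 43 (9 and 34) with scaling to the hybridization controls, 97 (51 and 46) with cyclic loess, 10 without the trend, 48 with the 2 groups alone, and 17 to 118 with an array left out.

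Changes of sign were as follows. With permethrin, Btg2 was 0.004 at the higher offset, 0.0438 with quantile normalization, 0.10 with median centring, 0.13 with hybridization controls and 0.0566 with cyclic loess, and -0.41 to 0.31 with an array left out. With clofibrate and scaling to hybridization controls, Fos was 0.0044 and Egr1 0.0447, and with averaged probe sets Cdkn1a was -0.085. With an array left out, Fos was -0.84 to 0.0239, Egr1 -0.71 to 0.0804, Btg2 -0.17 to 0.23 and Cdkn1a -0.21 to 0.85. Between treatments, Myc and Btg2 were 0.0337 and 0.0014 with quantile normalization and 0.0133 and 0.0121 with cyclic loess, and Ccng1 was -0.16 with hybridization controls and -0.15 with averaged probe sets. With an array left out, Fos was -0.36 to 0.0829, Egr1 -0.68 to 0.12, Myc -0.31 to 0.33, Btg2 -0.43 to 0.29, Cdkn1a -0.18 to 0.88 and Ccng1 -0.0912 to 0.12.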

Other observations

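The genes named here were picked with their values in view. Between permethrin and clofibrate, 8 of the 36 further immediate early genes had an unadjusted p under 0.05, 6 lower and 2 higher with permethrin, and 0 passed after adjustment in limma; 13.0% of all genes had such a p. Of the 6 lower ones, Junb had a signal of 30.6 to 40.4 with permethrin and 46.3 to 105 with clofibrate, with controls at 30.5 to 83.2. Dusp6, a phosphatase that switches off ERK kinases, had 170 to 305 with permethrin and 349.8 to 528 with clofibrate, with controls at 200 to 396. For both genes the treated groups did not overlap each other and the control group overlapped both. The treated groups did not overlap for 5 of the 36 genes, beside 18.1% of all genes.

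Ccng2, which encodes the cyclin related to Ccng1, gave signals of 311 to 382 on control arrays, 437 to 567 on permethrin arrays and 384 to 428 on clofibrate arrays, with all treated arrays above the controls (log2 change 0.52 ± 0.13 with permethrin, limma adjusted p = 0.0807, n = 3). Nfil3, a repressor of transcription, read 409 to 533 on control arrays, 247 to 403 on permethrin arrays and 117 to 365 on clofibrate arrays, with all treated arrays below the controls and a log2 change of -1.01 ± 0.35 with clofibrate (adjusted p = 0.129).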
